A study of Homo sapiens with 4 samples.

Results

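The genes described here are 10 parts of the NF-kB pathway: MALT1, BCL10, NFKB1, NFKB2, RELA, RELB, NFKBIA, NFKBIE, TNFAIP3 and BIRC3. They were picked by gene symbol from 26255 symbols with FPKM values (fragments per kilobase of transcript, scaled to the size of the library), and all 10 were found. The set was proposed around MALT1 because its level differed between the groups, so the differences of the members are given as descriptions and support nothing further. The RNA came from HCT116, a long-established line of human colorectal carcinoma cells. The EV control group held 2 libraries, from cells that received an empty vector per the labels, whose data columns carry the name AAVS1, a genomic site often used as a neutral target. The KO group held 2 libraries of cells with a knockout of C14orf159, the gene now named DGLUCY, whose columns carry the name sgDGLUCY. Series text ties the study to migration, invasion, spheroid growth and Wnt/β-catenin signalling in colorectal cancer. The labels do not say whether the replicates were separate cultures or clones, so the spread between replicates may be technical in part. In bulk RNA of this kind, fewer cells with a transcript and less transcript per cell cannot be told apart.

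NF-kB is a family of dimeric transcription factors that is held in the cytoplasm by inhibitory IkB proteins until an IkB kinase marks these for degradation. MALT1 is a scaffold and a protease of the CARD-BCL10-MALT1 (CBM) complex, which carries signals from protein kinase C and certain receptors to the IkB kinase. It is best known from lymphocytes, and in epithelial cells CARD10 (also called CARMA3) serves as the scaffold of the complex. Active NF-kB in turn switches on its own brakes, among them NFKBIA and TNFAIP3.

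C14orf159 itself stood at 16.2 and 16.4 FPKM in the EV controls, at 2.52 FPKM in KO 1 and at 10.8 FPKM in KO 2, which is 15.5% and 66.2% of the EV control mean. Both KO libraries lay below both controls, but KO 2 kept most of the transcript, so each KO library is also given alone below. The 20 nearest tested genes of C14orf159 had a median log2 difference of -0.57 in KO 1 and 0.05 in KO 2. Protein was not measured, so the transcript level does not show how complete the knockout was in either library. The libraries held an estimated 12.5 to 13.4 M fragments (mega). Epithelial markers (EPCAM, KRT8, KRT18, KRT19, CDH1, VIL1) summed to between 3340 and 3700 FPKM per library, with VIL1 alone near 0. Of 7 lymphoid and myeloid markers, 4 (PTPRC, CD3E, MS4A1, TYROBP) were listed at 0 in all libraries, and the 7 summed to 2.68 and 1.93 FPKM in the EV controls and 2.06 and 3 FPKM in the KO libraries, nearly all of it CD68. Fibroblast markers summed to at most 0.109 FPKM in any library, and endothelial markers to at most 0.135 FPKM.

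The promoter windows of the members were searched for the kappaB consensus, a binding sequence of NF-kB. A window without a match does not show that the gene lacks a site. Printed here are 4 of them: MALT1, the brakes NFKBIA and TNFAIP3, and BIRC3. The windows run from 250 bases before to 50 after the start site, come from RefSeq on GRCh38.p14 (the expression values rest on hg19) and are written in the gene's direction. Capitals mark matches to the 10-letter kappaB consensus on either strand.
MALT1 (chr18:58671215-58671514, plus strand): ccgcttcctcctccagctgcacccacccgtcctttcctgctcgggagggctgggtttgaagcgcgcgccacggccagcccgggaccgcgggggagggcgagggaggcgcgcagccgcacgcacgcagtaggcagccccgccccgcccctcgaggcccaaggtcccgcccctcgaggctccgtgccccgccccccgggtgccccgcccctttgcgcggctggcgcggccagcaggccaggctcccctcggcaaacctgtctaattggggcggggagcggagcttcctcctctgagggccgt
NFKBIA (chr14:35404700-35404999, minus strand): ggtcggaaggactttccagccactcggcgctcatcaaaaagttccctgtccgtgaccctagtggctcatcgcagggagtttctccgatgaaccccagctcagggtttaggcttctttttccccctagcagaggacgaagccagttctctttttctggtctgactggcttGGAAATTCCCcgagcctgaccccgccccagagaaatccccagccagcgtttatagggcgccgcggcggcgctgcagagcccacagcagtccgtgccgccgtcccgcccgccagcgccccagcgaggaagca
TNFAIP3 (chr6:137867009-137867308, plus strand): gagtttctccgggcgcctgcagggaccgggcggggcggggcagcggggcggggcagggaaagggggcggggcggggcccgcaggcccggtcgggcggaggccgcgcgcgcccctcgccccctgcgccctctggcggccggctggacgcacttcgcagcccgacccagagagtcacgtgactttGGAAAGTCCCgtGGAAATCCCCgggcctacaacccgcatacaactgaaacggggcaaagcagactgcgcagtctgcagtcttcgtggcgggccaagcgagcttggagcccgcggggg
BIRC3 (chr11:102317234-102317533, plus strand): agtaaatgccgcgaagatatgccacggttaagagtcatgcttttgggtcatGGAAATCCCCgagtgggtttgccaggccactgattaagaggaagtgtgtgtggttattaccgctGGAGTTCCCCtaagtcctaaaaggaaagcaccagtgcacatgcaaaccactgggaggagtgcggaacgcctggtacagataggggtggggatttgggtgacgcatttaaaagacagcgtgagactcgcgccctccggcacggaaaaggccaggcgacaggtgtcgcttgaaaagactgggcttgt
The MALT1 window held 0 matches, NFKBIA 1, and TNFAIP3 and BIRC3 2 each. NFKB1 had GGGAATTTCC in 1 of 2 windows, 49 bases before the start site. NFKB2 had GGGGCTTTCC in the second of its 3 windows and GGGACTTTCC in the third, beside GGGGCTTCCC and an overlapping pair. BCL10 and RELA held 0 matches, while RELB and NFKBIE had no window. Over all 35116 windows, 11.3% held a match, and 13.5% of those of tested genes did, against 6 of the 12 member windows. The MALT1 and TNFAIP3 windows each held 6 copies of GGGCGG, counted on both strands, a sequence present in 45% of all windows and in 67.4% of those of tested genes. A match is a description of the letters and does not show binding.

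Among the CBM members, MALT1 stood at 19.2 and 19.8 FPKM in the EV controls and at 9.68 and 8.30 FPKM in KO 1 and KO 2. Both KO libraries were low, at 49.6% and 42.5% of the control mean, and the groups did not overlap. The means were 19.5 ± 0.423 and 8.99 ± 0.977 FPKM (SD, n = 2 per group), a log2(FPKM + 1) difference of -1.04 (SE 0.10) for KO minus EV control. In the limma-trend fit over 12701 tested genes its adjusted p was 0.092, above the threshold of 0.05. Without KO replicate 1 or KO replicate 2 the adjusted p was 0.00251 and 0.00245, with the lone KO library assumed to vary like the EV controls. Without EV control replicate 1 or 2 it was 0.367 and 0.45. A total of 54 tested genes (0.425%), MALT1 included, had a difference as low or lower, and in 32 (0.252% of those tested) both KO libraries lay at least as far down as KO 1 did for MALT1.

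BCL10, the adaptor that binds MALT1 and forms filaments with it, had 9.30 and 9.38 FPKM in the EV controls and 9.29 and 8.92 FPKM in KO 1 and KO 2. All 4 values lay within 0.5 FPKM of each other, and the log2 difference was -0.03 (SE 0.082). FPKM are scaled for length, so levels can be set against each other within a library, but only roughly. The transcript lengths used are not known. MALT1 was 2.07 and 2.11 times BCL10 in the EV controls, and 1.04 and 0.93 times BCL10 in KO 1 and KO 2. The ratio of MALT1 to BCL10 in FPKM was thus lower in both KO libraries than in both EV controls.

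**Figure D1:**
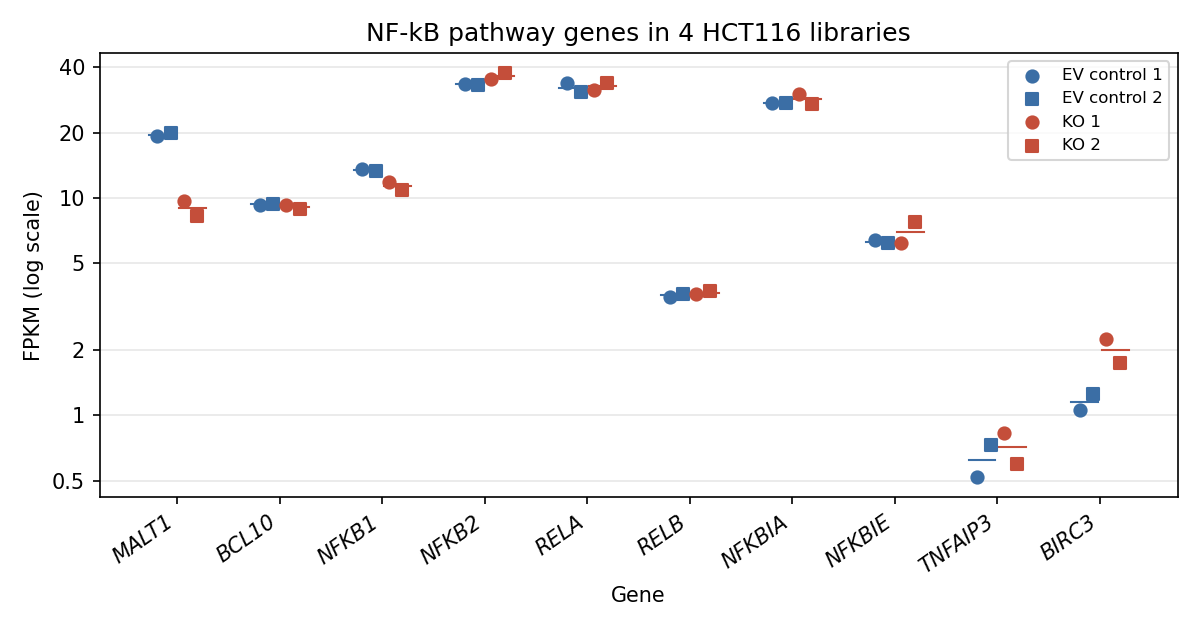
FPKM of the 10 members (log axis) in each of the 4 libraries, EV control in blue and KO in red, with circles for replicate 1, squares for replicate 2 and short lines for group means. MALT1 is the member with the widest gap between the groups, 19.2 and 19.8 against 9.68 and 8.30 FPKM.

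The DNA-binding subunits differed little. RELA, which encodes the main activating subunit p65, had 33.8 and 30.6 FPKM in the EV controls and 31.4 and 33.9 FPKM in the KO libraries, and the groups overlapped. NFKB1, the precursor of p50, had 13.6 and 13.2 FPKM in the EV controls and 11.8 and 10.9 FPKM in KO 1 and KO 2. Both KO values of NFKB1 were below both controls, at 87.9% and 81.2% of their mean (log2 difference -0.23, SE 0.085).

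NFKB2, the precursor of p52 in the alternative pathway, had 33.6 and 33.1 FPKM in the EV controls and 35.2 and 37.5 FPKM in the KO libraries (log2 difference 0.12, SE 0.078). The groups of NFKB2 did not overlap, the other way round from NFKB1, so the ratio of NFKB2 to NFKB1 was 2.47 and 2.50 in the EV controls and 2.99 and 3.44 in KO 1 and KO 2. RELB, the partner of p52, ranged from 3.52 to 3.72 FPKM over the 4 libraries (log2 difference 0.03, SE 0.099).

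The inhibitors and feedback genes did not share the low level of MALT1. NFKBIA, which encodes IkB-alpha, had 27.4 and 27.2 FPKM in the EV controls and 30.2 and 27.0 FPKM in the KO libraries, with KO 1 alone above the controls. NFKBIE, which encodes IkB-epsilon, had 6.39 and 6.22 FPKM in the EV controls and 6.22 and 7.74 FPKM in the KO libraries, with KO 2 alone above. For both the groups overlapped, and the KO library that stood out was not the same.

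BIRC3, which encodes the ubiquitin ligase cIAP2, had 1.06 and 1.26 FPKM in the EV controls and 2.26 and 1.74 FPKM in KO 1 and KO 2. Both KO libraries were high, at 195% and 150% of the control mean (log2 difference 0.47, SE 0.15), and the groups did not overlap. The limma-trend adjusted p of BIRC3 was 0.265. It was 0.0418 without KO replicate 2, 0.126 without KO replicate 1, and 0.951 and 1.0 without EV control replicates 1 and 2. At this low level the log2 difference depended on the pseudocount, and was 0.73 with a pseudocount of 0.1. These levels are low: on the longest annotated coding transcript of 5.20 kb they correspond to roughly 72 and 87 fragments in the EV controls and 146 and 116 in KO 1 and KO 2. BIRC2, the gene next to it in the same family (cIAP1), had 20.4 and 20.03 against 26.3 and 22.4 FPKM.

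TNFAIP3, which encodes the deubiquitinase A20, had 0.520 and 0.730 FPKM in the EV controls, against 0.834 and 0.599 FPKM in KO 1 and KO 2. It did not reach 1 FPKM in any library and was the 1 member left out of the fit. Its values rest on roughly 32 to 49 fragments per library at the longest coding transcript, and the groups overlapped.

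The order of FPKM in the EV controls was NFKB2, RELA, NFKBIA, MALT1, NFKB1, BCL10, NFKBIE, RELB, BIRC3 and TNFAIP3, where only the neighbours NFKB2 and RELA overlapped. Such an order also rests on the transcript lengths used. In the KO libraries MALT1 moved from the fourth to the sixth place, where it overlapped BCL10, and the order of the others stayed the same. Of the 9 tested members, 0 passed the adjusted threshold in limma-trend, against 0.11% of all tested genes (7 higher and 7 lower, 0.0551% each). At an unadjusted p under 0.05, BIRC3 was higher and MALT1 and NFKB1 were lower, beside 16.4% of all tested genes. Groups did not overlap for 6 members (MALT1, NFKB1 and BCL10 lower; BIRC3, NFKB2 and RELB higher), against 52.1% of all tested genes (26.5% higher and 25.6% lower). Nothing is read from these shares, since the set was proposed from this contrast.

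MALT1 was next set beside its chromosomal surroundings, because part of distal chromosome 14, around C14orf159, was low in KO 1. MALT1 lies on chromosome 18. The 10 nearest tested genes on each side had a median log2 difference of 0.01 in KO 1 and -0.05 in KO 2. The lowest of these 20 was WDR7, at -0.27 and -0.40, and the next gene on either side, NEDD4L and ZNF532, gave 0.22 and -0.02, and 0.47 and -0.23. None of the 20 lay below -0.40 in either KO library. TNFRSF11A, which encodes RANK, a receptor that signals to NF-kB, lies 7 tested genes away and was the highest of the 20, at 0.76 and 0.58.

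**Figure D2:**
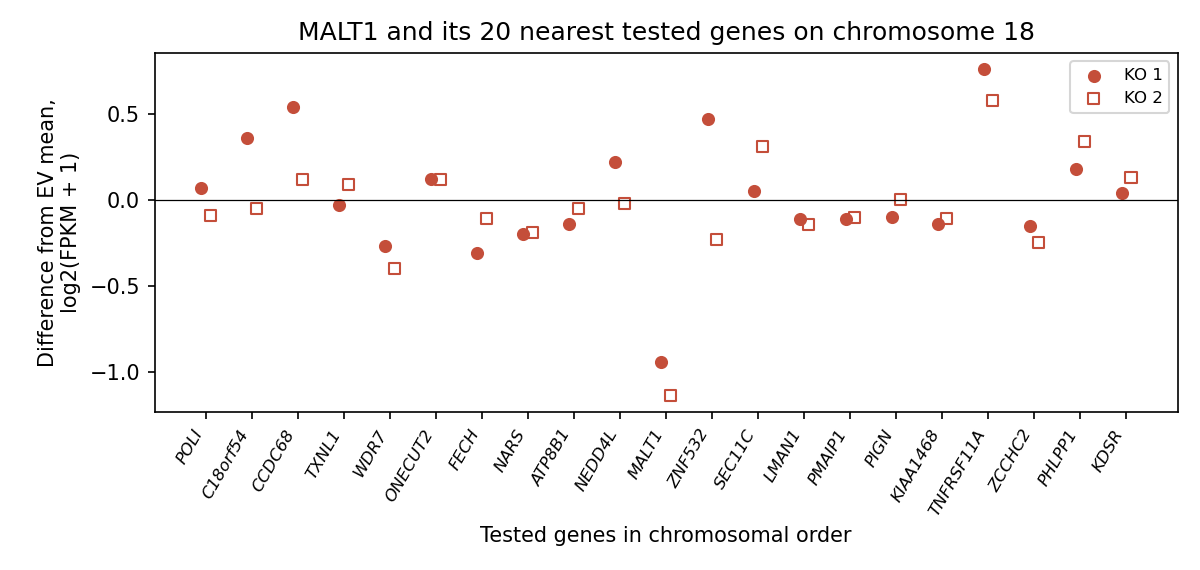
Log2(FPKM + 1) difference of KO 1 (filled circles) and KO 2 (open squares) from the EV control mean for MALT1 and the 10 nearest tested genes on each side, in chromosomal order. MALT1 lies at -0.94 and -1.14, while its neighbours scatter around 0.

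For the other 8 tested members the medians of their 20 neighbours lay between -0.14 and 0.12 in either KO library. NFKBIA is on chromosome 14 as well, and its neighbours had medians of 0.12 and 0.08, unlike the 20 neighbours of C14orf159, at -0.57 in KO 1 and 0.05 in KO 2.

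The genes whose values were most like those of MALT1 were found by the root-mean-square distance of log2(FPKM + 1) values, centred on the mean of the 4 libraries, among 9220 genes averaging 5 FPKM or more. They were ANXA3 (distance 0.0743), HIST3H2A (0.0972), TP53I3 (0.144), FRAS1 (0.147) and TSPAN1 (0.149). ANXA3, an annexin, had 206 and 202 against 104 and 102 FPKM. None of the 5 belongs to the NF-kB lists described below. With 4 libraries this likeness is a description alone.

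Other genes of the pathway were taken from fixed lists, and 63 of their 76 genes reached the level for testing. Of these 63, 0 passed the adjusted threshold in limma-trend, against the 0.11% of all genes given above. At an unadjusted p under 0.05, 10 were higher and 0 lower (15.9%), beside 16.4% of all tested genes, where 9.23% were higher and 7.22% lower. The median log2 difference was 0.05, with 0.06 in KO 1 and 0.04 in KO 2, and 0.00 over all tested genes. With both directions pooled, the pathway outside the members had a share of small p-values near that of all genes. By direction the shares differed, since all 10 lay on the higher side and 0 on the lower side. Whether this lean to the higher side exceeds that of other gene sets was not tested.

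At the CBM complex, CARD10, the epithelial scaffold, had 9.46 and 10.3 FPKM in the EV controls and 11.1 and 13.8 FPKM in the KO libraries (log2 difference 0.30, SE 0.13; limma-trend adjusted p = 0.329). CARD9 and CARD14, related scaffold genes, stayed under 1 FPKM in every library. Of the kinase C genes in the list, PRKCD had the highest level, at 24.0 and 23.2 against 23.3 and 27.7 FPKM. In the CBM and kinase C list, 5 of 10 genes were tested. Of these, 0 had an unadjusted p under 0.05 in limma-trend, beside 16.4% of all tested genes.

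Of 20 tested receptor and adaptor genes, 5 had an unadjusted p under 0.05 in limma-trend, all higher. This is 25%, beside 16.4% of all tested genes (9.23% higher). Groups did not overlap for 10 of the 20 on the higher side and for 4 on the lower side, 70% in all. Over all tested genes this share was 52.1%, with 26.5% higher and 25.6% lower. TNFRSF12A, the receptor for TWEAK, had 100.1 and 98.9 FPKM in the EV controls and 133 and 137 FPKM in the KO libraries (log2 difference 0.44, SE 0.077; limma-trend adjusted p = 0.175). TRAF5, an adaptor of tumour necrosis factor receptors, had 2.33 and 2.64 against 3.955 and 3.69 FPKM (adjusted p = 0.208). TNFRSF11A had 0.395 and 0.853 against 1.71 and 1.40 FPKM (adjusted p = 0.243).

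The adaptor TRADD had 10.6 and 7.97 against 12.2 and 13.02 FPKM, and the interleukin-1 receptor gene IL1R1 2.04 and 1.94 against 2.98 and 2.58 FPKM. None of the 5 passed the adjusted threshold. Their groups did not overlap, which is likely for genes picked by a small p and was found for 52.1% of all tested genes. The main tumour necrosis factor receptor gene TNFRSF1A ranged from 30.0 to 33.6 FPKM.

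TRAF3, which restrains the alternative pathway by keeping its kinase NIK low, differed between the KO libraries and is named after its values were seen. It had 8.03 and 7.95 FPKM in the EV controls, 4.50 FPKM in KO 1 and 8.94 FPKM in KO 2. TRAF3 also lies on chromosome 14, and its 20 neighbours had medians of -0.71 in KO 1 and 0.01 in KO 2, beside -0.71 and 0.14 for TRAF3 itself. The part of this surrounding stretch in the TRAF3 value was not tested. NFKB2 and RELB, whose proteins act downstream of NIK, are given above, and MAP3K14, the NIK gene, had 4.68 and 4.71 against 3.98 and 5.10 FPKM.

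Among the 12 kinase genes, 1 (8.33%) had an unadjusted p under 0.05 in limma-trend, beside 16.4% of all tested genes. It was IKBKB, which encodes a catalytic subunit of the IkB kinase. IKBKB had 9.88 and 9.64 FPKM in the EV controls and 12.9 and 11.8 FPKM in the KO libraries. Its log2 difference was 0.31 (SE 0.088), with a limma-trend adjusted p of 0.239. CHUK, the other catalytic subunit, ranged from 20.5 to 23.8 FPKM and the regulatory subunit IKBKG from 9.47 to 10.5 FPKM, with overlapping groups. MAP3K7, which encodes TAK1, had 14.2 and 14.4 against 14.2 and 13.3 FPKM.

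Of 20 genes for ubiquitin ligases, deubiquitinases and their partners, 2 (10%) had an unadjusted p under 0.05 in limma-trend. The share over all tested genes was 16.4%. These 2 were TNIP1 and RNF11, both partners of A20. TNIP1 had 18.5 and 17.8 against 20.8 and 23.7 FPKM and RNF11 24.1 and 25.5 against 29.2 and 28.9 FPKM (limma-trend adjusted p = 0.278 for TNIP1). Among the other Rel and IkB genes, BCL3, an atypical IkB protein that can act as a coactivator, had 5.84 and 6.33 against 7.73 and 10.1 FPKM (adjusted p = 0.245). COMMD1, known to limit RELA, had 14.8 in both EV controls and 19.6 and 20.1 FPKM in the KO libraries (adjusted p = 0.183). REL stayed near 1 FPKM, between 0.676 and 1.12.

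**Figure D3:**
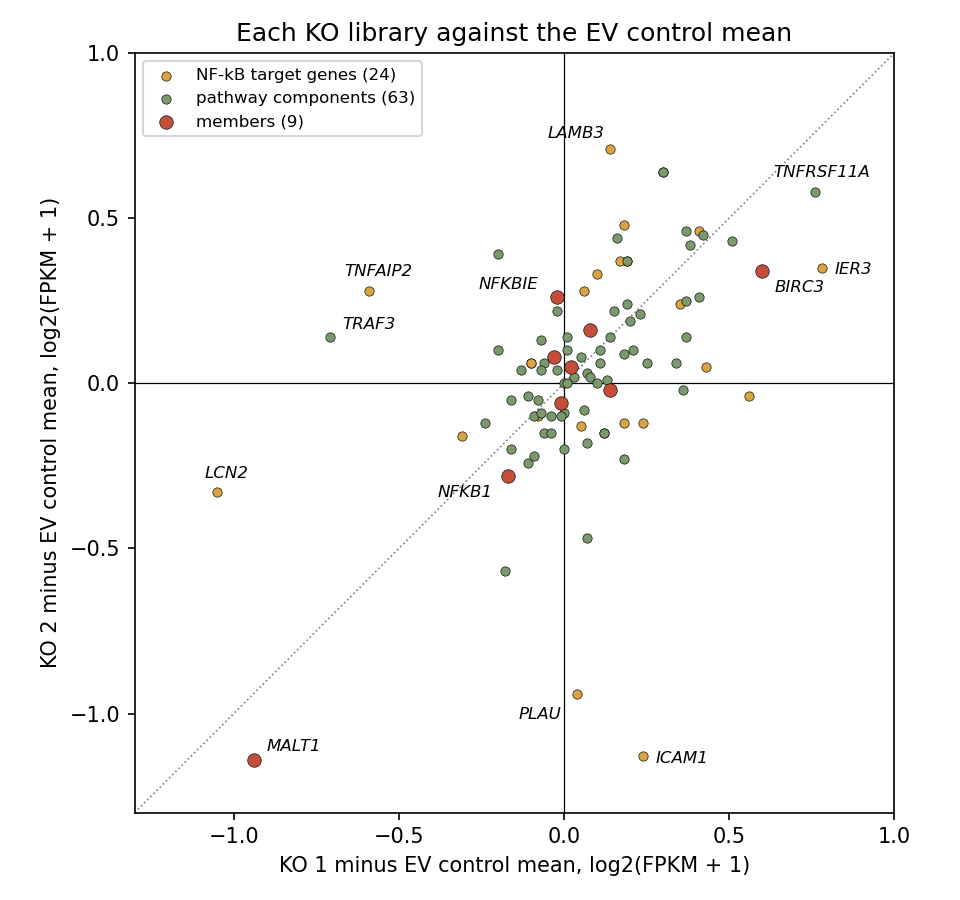
Log2(FPKM + 1) difference from the EV control mean in KO 1 (horizontal) and KO 2 (vertical) for the tested members (red), pathway components (green) and NF-kB target genes (yellow), where the dotted line marks equal differences. MALT1 lies apart at -0.94 and -1.14, and PLAU, ICAM1, TRAF3 and TNFAIP2 differ in 1 KO library or in opposite directions.

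MALT1 also cuts a small set of proteins, among them A20, RELB and BCL10 of the members. The transcripts of 10 further genes listed as substrates were all tested. Listing does not mean that MALT1 itself cuts the product of each of the 10. None passed the adjusted threshold in limma-trend and 0 had an unadjusted p under 0.05, beside 16.4% of all tested genes. The values cover transcripts and say nothing of cleavage. CYLD, a deubiquitinase, ranged from 1.86 to 2.03 FPKM and N4BP1 from 5.42 to 5.60 FPKM. ZC3H12A, which encodes the RNA-degrading enzyme regnase-1, had 3.20 and 3.38 against 4.03 and 3.74 FPKM. RC3H2, which encodes the related regulator roquin-2, had the smallest p of the list, with 6.73 and 7.29 against 5.98 and 4.44 FPKM (adjusted p = 0.311).

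Transcripts of NF-kB target genes outside the members were examined next, while the activity of the pathway itself was not measured. Of 47 genes 24 were tested, and 9 were listed at 0 in every library, among them TNF, IL1B, CCL2, CXCL10 and VCAM1. Several classical chemokine and cytokine genes were near the detection limit, with CXCL1 between 0.882 and 1.135 FPKM and IL6 at most 0.0703 FPKM. Of the 24 tested, 0 passed the adjusted threshold in limma-trend. At an unadjusted p under 0.05, 5 were higher and 1 lower (25%, beside 16.4% of all tested genes), and the median log2 difference was 0.12, with 0.15 in KO 1 and 0.06 in KO 2. Groups did not overlap for 10 targets on the higher side and 3 on the lower side (54.2%, beside 52.1% of all tested genes). The tested target with the lowest log2 difference was LCN2, at -0.69. It had 2.12 and 1.09 FPKM in the EV controls, 0.237 FPKM in KO 1 and 1.035 FPKM in KO 2.

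The 5 on the higher side were TNFAIP8, SDC4, IER3, BCL3 and TNIP1, of which BCL3 and TNIP1 are also among the 10 higher pathway components above. IER3, an immediate early gene that is also induced by other signals, had 385 and 362 FPKM in the EV controls and 642 and 477 FPKM in the KO libraries (log2 difference 0.57, SE 0.17; limma-trend adjusted p = 0.243). TNFAIP8, an inhibitor of cell death, had 8.43 and 8.47 against 11.5 and 12.0 FPKM (adjusted p = 0.183). The syndecan gene SDC4 had means of 49.8 ± 0.262 and 61.5 ± 3.38 FPKM (SD, n = 2 per group) (adjusted p = 0.229).

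The 1 on the lower side was SOD2, the mitochondrial superoxide dismutase gene, with 53.9 and 56.1 FPKM in the EV controls and 44.2 and 49.0 FPKM in the KO libraries (log2 difference -0.24, SE 0.088; limma-trend adjusted p = 0.296). In each of these 6 genes the groups did not overlap, as in 52.1% of all tested genes. Picking genes by a small p makes this likely, so it adds no support. Over the whole target list, tested or not, 41 of the 47 genes had promoter windows. Of these 61 windows, 27 (44.3%) had a kappaB match, beside 11.3% of all windows and 13.5% of those of tested genes.

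**Figure D4:**
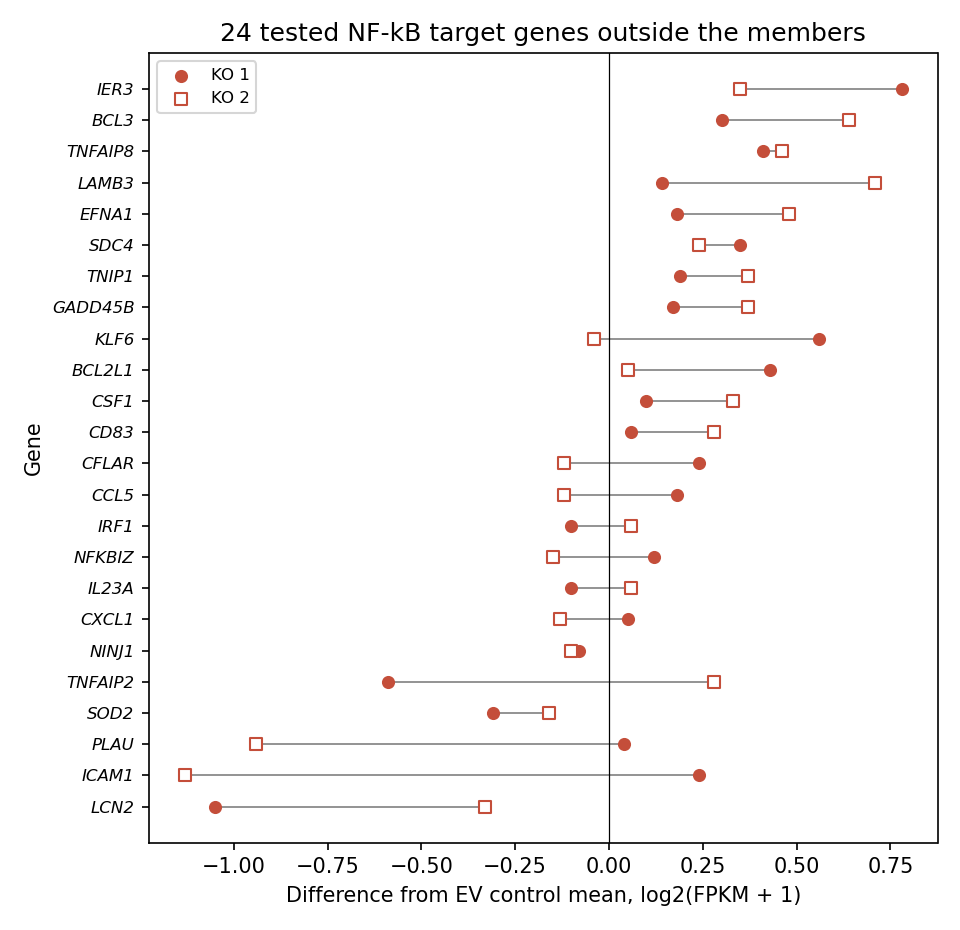
Log2(FPKM + 1) difference from the EV control mean in KO 1 (filled circles) and KO 2 (open squares) for the 24 tested NF-kB target genes, ordered by their mean difference. Most lie between -0.31 and 0.78, and the KO libraries part widely for ICAM1, PLAU, TNFAIP2 and LCN2.

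Some target genes set the KO libraries apart and are named after their values were seen. IL32, a cytokine gene, was at 72.5 FPKM in KO 2, at 0.216 FPKM in KO 1, and at 0.102 and 0 FPKM in the EV controls, so it was not tested. ICAM1, an adhesion molecule gene, had 2.28 and 1.93 FPKM in the EV controls, 2.66 FPKM in KO 1 and 0.418 FPKM in KO 2. PLAU, which encodes urokinase, had 46.5 and 41.8 FPKM in the EV controls, 45.5 FPKM in KO 1 and 22.6 FPKM in KO 2.

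KO 2 was thus high for IL32 and low for ICAM1 and PLAU, while KO 1 lay near the controls for all 3. TNFAIP2 went the other way in each library, with 18.1 and 17.7 FPKM in the EV controls, 11.6 FPKM in KO 1 and 22.0 FPKM in KO 2. Each KO library is a lone sample here, so these differences have no replicate check. MALT1, around which the set was proposed, had a log2 ratio of KO 2 to KO 1 of -0.22. The robust SD of that ratio over 6885 genes with a mean of 5 to 40 FPKM was 0.24, against 0.11 between the EV controls. The MALT1 ratio was close to that SD in size, so its likeness in the KO libraries was nothing unusual.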

How the data were processed

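Stranded poly(A) RNA libraries (TruSeq stranded mRNA kit, per the labels' protocols) came from 2 EV control and 2 KO samples of HCT116. The authors deposited FPKM for each gene symbol. Per the submitters' processing notes, the tools were Cuffnorm 2.2.1, TopHat2 2.0.13, SAMtools 0.1.19 and Bowtie2 2.2.3 and the build was hg19. The sources used here do not name the annotation, strand setting or library scaling, so overlapping genes on opposite strands may not be told apart. FPKM carry no counts.

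Values were taken as log2(FPKM + 1), and genes with at least 1 FPKM in at least 2 libraries (12701) were fitted with limma 3.58.1 (trend, group as sole term) in R 4.3.3, tested on simulated data. Adjustment over all tested genes followed Benjamini and Hochberg. Prior degrees of freedom were 2.82. An exact permutation test of 2 against 2 libraries cannot give a p below 0.333 and was not used. List medians and counts were set beside those of all genes, with no set test.

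The value of 1 fragment per kilobase was estimated from 2008 genes with a single GENCODE transcript of 1000 to 6000 nt, as the median of length-scaled values between 0.06 and 0.1, which bounds it, so depth is rough. Gene order was taken from RefSeq (GRCh38.p14, 98.6% of tested genes matched) for order alone. Promoter windows were found for 8 of 10 members.

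The members and lists were chosen with earlier results of these data known. Named genes were the members, C14orf159, the 6 smallest p-values of each list at most, any list gene past the threshold, the cell type markers and the 5 genes most like MALT1. Others were named for their role in the pathway or after their values were seen. The alternatives were other pseudocounts, filters, scalings and fits, a replicate block and leaving out each library. A gene of the fixed lists is not reported here.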

Additional observations from a re-analysis of the deposited data

How the results depend on the processing

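The log2 difference of MALT1 kept its direction in all 13 alternatives, between -1.14 and -0.94 (without KO replicate 1 and without KO replicate 2), and between -1.11 and -1.04 in those that kept all libraries. Its adjusted p (limma) lay between 0.0783 (replicate block) and 0.222 (no filter on low values) with all libraries, was 0.367 and 0.45 without EV control replicates 1 and 2, and was 0.00251 and 0.00245 without KO replicates 1 and 2. Those last fits leave a lone KO library that is assumed to vary like the EV controls.

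Over all genes, the 7 higher calls became 3 with no filter, 3 without the trend and 4 with the replicate block, and the 7 lower calls became 3 with no filter and 4 with quantile normalization. Without small RNA genes 0 were higher and 0 lower (limma-trend, 2171 genes at an unadjusted p under 0.05), with 12568 genes tested. Leaving out libraries gave between 6 (without EV control replicate 2) and 1495 higher genes and between 0 and 1070 lower genes. The cause of the other shifts was not tested. The library numbers are shared by label alone: over genes, the differences between replicates of the EV control and KO groups had a correlation of 0.00.

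With all libraries, or without an EV control, 0 members, pathway components, substrates and targets passed in limma. Without KO replicate 1, which leaves KO 2, the calls were MALT1 lower among the members, 6 pathway components higher and 2 lower, 9 targets higher and 2 lower, and 1 substrate (RC3H2) lower, with BCL3 and TNIP1 counted in both the pathway and the target list. Without KO replicate 2, which leaves KO 1, they were MALT1 lower and BIRC3 higher among the members (adjusted p = 0.0418 for BIRC3), 5 pathway components higher and 1 (TRAF3) lower, and 5 targets higher and 3 lower. Over all genes those fits called 12% higher and 7.88% lower, and 7.32% higher and 8.54% lower. Depth limits the members at or below about 2 FPKM, TNFAIP3 and BIRC3.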
